A study of Mus musculus with 19 samples.

Results

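Long interspersed nuclear elements (LINEs) were followed through 19 brain RNA-seq libraries as the 143 repeat subfamilies that the deposited repeat tables place in the class LINE, of 1067 subfamilies in all. Of these, 118 belong to the family L1, 15 to CR1, 4 to L2, 3 to RTE, 1 to RTE-BovB, 1 to Dong-R4 and 1 to a family written as L1?. The libraries came from homogenates of hippocampus and cortex of C57BL/6 mice at 3 months of age. On the day of birth their brains had received an AAV1 vector (adeno-associated virus), 2 µl into each cerebral ventricle of C57BL/6J pups. In the poly(PR) cohort, 7 mice (4 female, 3 male) carried AAV-GFP-(PR)50, and 4 controls of the same harvest (3 female, 1 male) carried AAV-GFP. In the poly(GR) cohort, 4 mice (3 female, 1 male) carried AAV-GFP-(GR)100, and 4 controls of its own harvest (2 female, 2 male) carried AAV-GFP. The treated vectors encode GFP joined to 50 units of proline-arginine or 100 units of glycine-arginine, dipeptide repeat proteins made from the expanded C9orf72 repeat in familial ALS and frontotemporal dementia. All mice therefore carry virus and GFP. The homogenate mixes transduced and other cells, and in such bulk samples fewer cells of a type and less RNA per cell cannot be told apart.

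LINEs are retrotransposons that copy themselves through an RNA intermediate and a reverse transcriptase that they encode. In the mouse only young L1 subfamilies still move. L1Md_A, L1Md_T and L1Md_Gf include copies that can retrotranspose, and the L1Md_F types are their older relatives. Lx elements record an early burst of L1 in the ancestors of mice and rats, while most old L1, L2, CR1 and RTE copies are inactive relics shared with many other mammals. Heterochromatin restrains L1 through histone H3 lysine 9 methylation, HP1 proteins and the HUSH complex, and L1 RNA is one of the sources from which double-stranded RNA can form. The series title sets poly(PR) beside heterochromatin, HP1α and double-stranded RNA, so the comparison asks whether LINE RNA differs in brains that express either protein.

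LINE reads came to between 1079598 and 2102669 per library, which was 9.41% to 16.5% of the repeat reads. The rRNA class took 22.1% to 59.5% of the repeat reads, and without it LINEs made up 21.0% to 25.6%. Reads on genes ranged from 26934239 to 47648711 per library. Levels below are RPM, the reads of a subfamily for each 1000000 gene reads of the same library, with the gene reads scaled by TMM (a correction for composition) within the cohort. They are not divided by the length or number of copies of a subfamily, so levels are compared between libraries and not between subfamilies. The tables sum all copies of a subfamily, and reads from a copy inside a gene cannot be told apart from those of a copy with its own promoter. Near-identical copies also leave the split of reads between neighbouring subfamilies uncertain.

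The reads were spread over elements of all ages. L1Md held 14.1% of LINE reads with 6 subfamilies, Lx 23.9% with 18, other rodent L1 (the L1_Mus, L1_Mur, L1_Mm, L1_Rod and L1VL names) 23.3% with 12, and the remaining, old L1 22.2% with 82. L2 held 12.6%, CR1 3.01% and RTE 0.784%. The subfamilies with the most reads were L1Md_F2 with 7.60% of LINE reads, L1_Mus3 with 7.57%, L1_Mus2 with 6.31%, L2b with 3.83%, L2a with 3.67%, L1Md_F3 with 3.47%, Lx8 and L1_Mus1. These 8 together took 38.7%. Counts were deep for most members: 97 had a mean of at least 1000 reads per library, 16 had a mean under 100, and 1 had no read in any library.

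Scaled to TMM-scaled gene reads, the total of all LINE reads was nearly the same with and without poly(PR). The 4 controls stood at 49401, 43182, 48035 and 53012 RPM, and the 7 poly(PR) libraries ran from 42242 through a median of 46338 to 59055. The ranges overlapped, and the poly(PR) libraries reached both below and above the controls. The means were 48561 ± 5691 (SD, n = 7) and 48408 ± 4068 (SD, n = 4), a log2 difference of 0.00034 (adjusted p = 0.997 over 13 repeat classes, exact two-sided permutation test). That small difference changed sign under other scalings. It was 0.0714 with raw gene reads and 0.074 with gene reads without mitochondrial genes (adjusted p = 0.7485 and 0.7603, exact permutation test). TMM-scaled gene reads were 0.9604 to 0.9885 times the raw ones in the controls and 0.9987 to 1.028 times with poly(PR). With all repeat reads as the library size, which counts the rRNA class in, the difference was 0.17 (adjusted p = 0.045, exact permutation test). The median over all tested subfamilies moved with it from 0.02 to 0.16. Of the repeat reads, rRNA took 40.03% to 46.1% in the controls, 34.4% to 36.1% in 6 poly(PR) libraries and 43.3% in replicate 6.

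Controls of the poly(GR) cohort stood at 38940, 37897, 32118 and 35240 RPM, and the poly(GR) libraries at 33831, 32884, 30920 and 38641. The groups overlapped, with poly(GR) replicate 4 near the highest control. The means were 34069 ± 3280 (SD, n = 4) with poly(GR) and 36049 ± 3048 (SD, n = 4) without, a log2 difference of -0.08 (adjusted p = 0.743, exact two-sided permutation test). With 4 libraries against 4 that test can give no unadjusted p below 0.0286, and with 7 against 4 none below 0.00303. LINE reads were 4.16% to 6.03% of gene reads in the poly(PR) cohort and 3.06% to 3.95% in the poly(GR) cohort before TMM. Each cohort has controls matched to its own harvest, so this gap was not compared further.

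**Figure D1:**
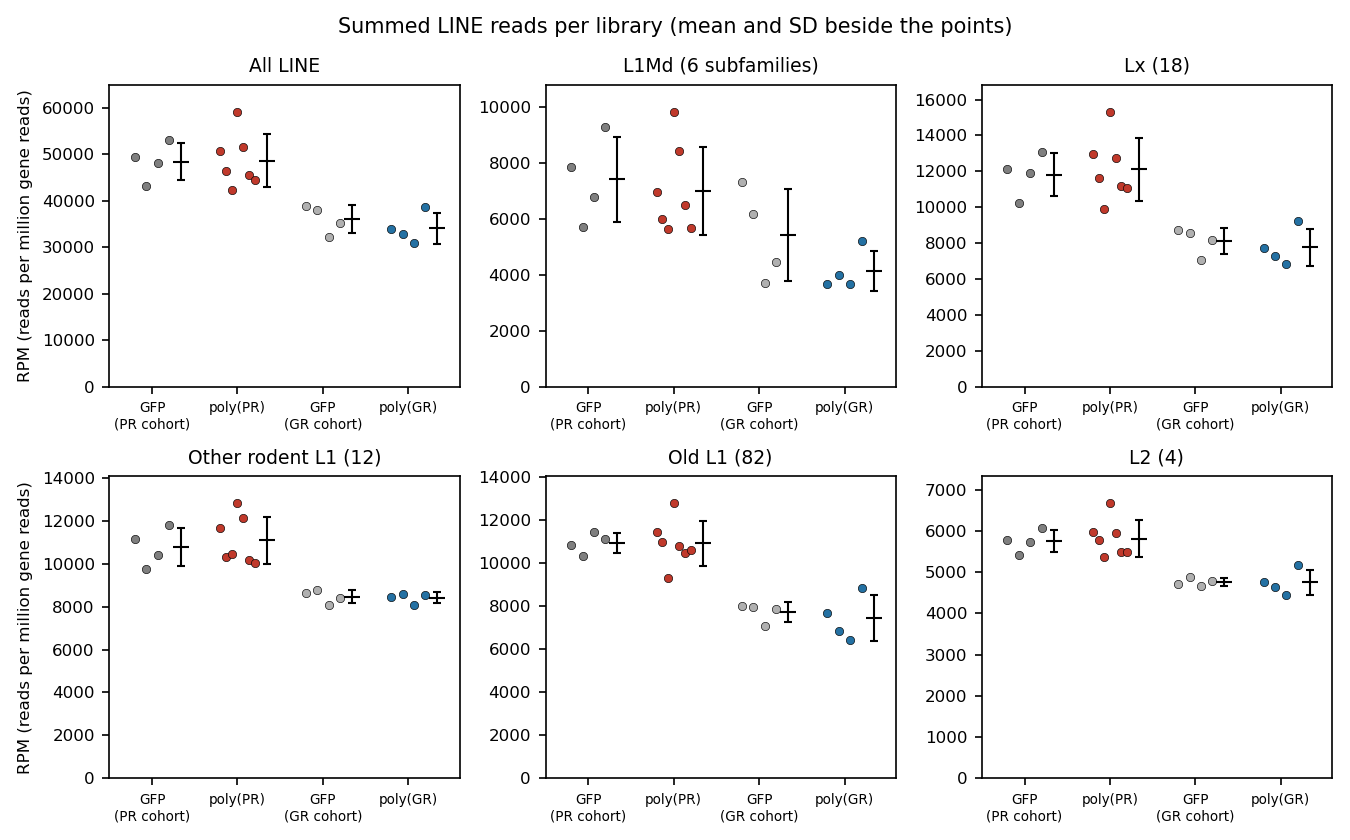
Summed RPM (y axes, from 0) of all LINE subfamilies and of 5 groups of them, for the 4 GFP controls and 7 poly(PR) libraries and the 4 GFP controls and 4 poly(GR) libraries. Each point is a library and the bars beside them are mean and SD; treated and control points overlap in every panel, and L1Md in the poly(GR) cohort has 2 controls, at 7324 and 6172, above the rest.

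Families of LINEs were compared in the same way, but with 49 families a single one could not pass: at the smallest p possible it would have an adjusted p of 0.148 with poly(PR) and 1 with poly(GR). For the LINE class alone among the 13 classes these limits were 0.0394 and 0.371. The L1 family differed by 0.00097 on the log2 scale with poly(PR) and by -0.10 with poly(GR), and L2 by 0.01 and -0.0019. CR1, a family best known from birds and reptiles with only fossils in mammals, had the smallest unadjusted p among LINE families in the poly(PR) cohort, at a log2 difference of -0.07 (p = 0.0939, adjusted p = 0.979 over 49 families, exact permutation test). LINE families of the poly(GR) cohort had adjusted p values of 0.9 or 0.992 in the same exact permutation test.

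Each subfamily was also fitted on its own. In the poly(PR) cohort 140 LINE subfamilies passed the filter on low counts and none was called by edgeR's quasi-likelihood test at 0.05 after adjustment. Over all subfamilies 0 of 975 were called (0%). An unadjusted p under 0.05 was found for 2 LINE subfamilies, L1M and X7C_LINE, against 28 of all (2.87%). DESeq2 called 0 LINE subfamilies and put 2 under an unadjusted 0.05. Of the 140, 85 had a log2 fold change above 0, with a median of 0.03 beside 0.02 for all 975. With raw gene reads as library size 114 lay above 0, and the median of all subfamilies moved to 0.09. The median standard error of a LINE log2 fold change was 0.11.

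With poly(GR), 138 LINE subfamilies were tested and none was called, as for all 955 subfamilies (0%). An unadjusted p under 0.05 was found for 5, against 20 of all (2.09%): L1Md_F3, L1Md_T, L1Md_F2 and Lx2 below their controls and L1M2b above. DESeq2 called 0 and put 1 under 0.05. Only 39 of the 138 had a log2 fold change above 0, with a median of -0.03 beside -0.02 for all subfamilies. This side depended on the scaling, since 70 of 138 lay above 0 with raw gene reads and 137 of 140 with all repeat reads as library size, where the median of all subfamilies was 0.42. The L1Md median of -0.22 was -0.19 and 0.22 under these scalings. L1M2a1, HAL1N1_MD and X7D_LINE had too few reads to be tested in either cohort, and X1_LINE and X2_LINE too few in the poly(GR) cohort.

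**Figure D2:**
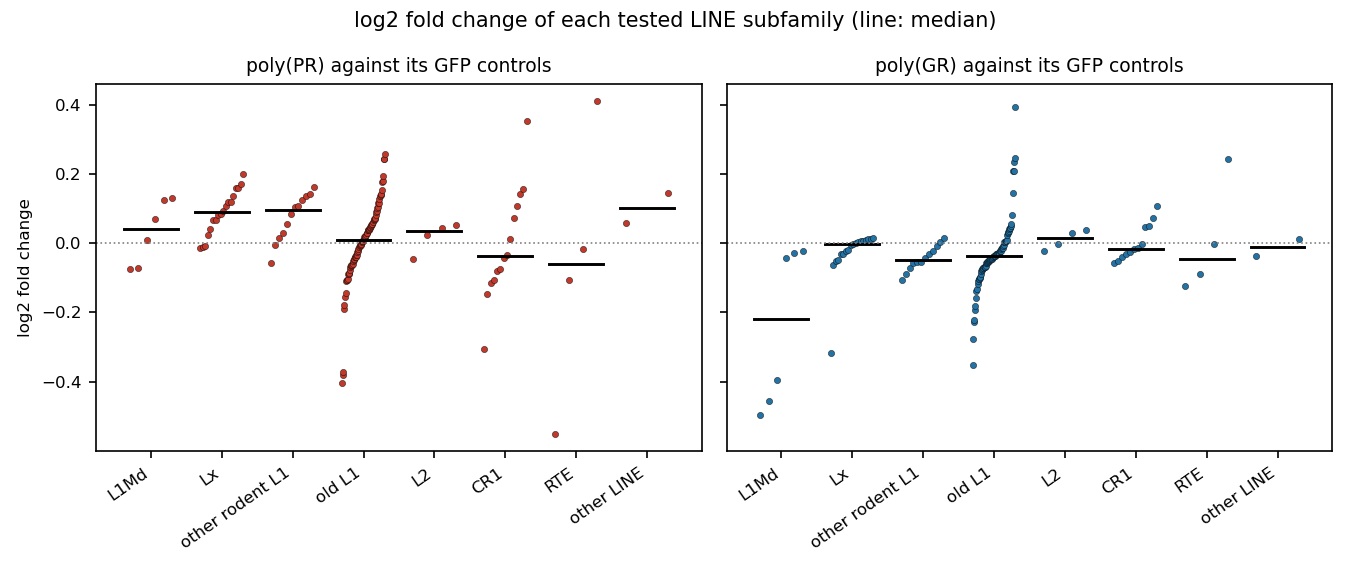
log2 fold change (y axis) of each tested LINE subfamily against the GFP controls of its cohort, by group of subfamilies (x axis), with poly(PR) on the left and poly(GR) on the right. Points are subfamilies in order of their value within a group and lines are medians; the L1Md median is 0.04 with poly(PR) and -0.22 with poly(GR), while the other medians of groups with 12 or more subfamilies lie between -0.05 and 0.10.

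Among the L1Md elements, L1Md_A, L1Md_T and L1Md_Gf are the ones in which retrotransposition could still occur. The L1Md sums hold mostly older F types, since L1Md_F2 and L1Md_F3 had 7.60% and 3.47% of LINE reads, of 14.1% for L1Md. L1Md_A, among the most active types in the mouse, was at 369, 302, 340 and 405 RPM in the poly(PR) controls, and ran from 328 through a median of 351 to 463 with poly(PR). The highest poly(PR) libraries lay above the controls while the lowest fell among them. The log2 fold change was 0.13 (SE 0.11, 95% interval -0.11 to 0.37, edgeR adjusted p = 0.969). For poly(GR), L1Md_A stood at 275, 281, 233 and 259 in the controls and 255, 256, 245 and 278 with poly(GR). These groups lay within the same range, with a log2 fold change of -0.03 (SE 0.09, 95% interval -0.22 to 0.17).

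L1Md_Gf and L1Md_F have fewer reads. L1Md_Gf averaged 44.2 ± 6.36 (SD, n = 7) with poly(PR) and 41.0 ± 4.68 (SD, n = 4) in its controls, and 28.6 ± 3.88 (SD, n = 4) with poly(GR) and 29.8 ± 2.57 (SD, n = 4) in its controls. L1Md_F averaged 95.3 ± 15.5 (SD, n = 7) against 92.3 ± 10.2 (SD, n = 4), and 57.6 ± 9.85 (SD, n = 4) against 59.0 ± 6.51 (SD, n = 4). Each of these differences was smaller than the spread within the groups.

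L1Md_T, whose copies include the T(F) type of active element, showed more spread between libraries. Its poly(PR) controls were at 979, 830, 1020 and 1421 RPM, and poly(PR) ran from 733 through 839 to 1349, with a log2 fold change of -0.08 (SE 0.14). In the poly(GR) cohort the controls were at 1184, 1046, 484 and 614 and the poly(GR) libraries at 490, 583, 523 and 769. Control replicates 1 and 2 stood above all 4 poly(GR) libraries, while replicate 4 lay among them and replicate 3 just below. The log2 fold change was -0.50 (SE 0.20, 95% interval -0.93 to -0.06), with an unadjusted p of 0.0272 and an edgeR adjusted p of 1.00.

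L1Md_F2, the LINE subfamily with the most reads, followed the same libraries. Its poly(PR) controls were at 4378, 3033, 3597 and 5060, and poly(PR) ran from 3018 through 3476 to 5491 (log2 fold change 0.01, SE 0.14). Its poly(GR) controls were at 3853, 3207, 1924 and 2343, and the poly(GR) libraries at 1918, 2096, 1894 and 2766 (log2 fold change -0.40, SE 0.17). Again only control replicates 1 and 2 stood apart, and the other controls were within the poly(GR) range. L1Md_F3 repeated this, with controls at 1919, 1543, 987 and 1145 against 928, 978, 924 and 1287 with poly(GR) (log2 fold change -0.45, SE 0.16, unadjusted p = 0.0121, edgeR adjusted p = 1.00).

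**Figure D3:**
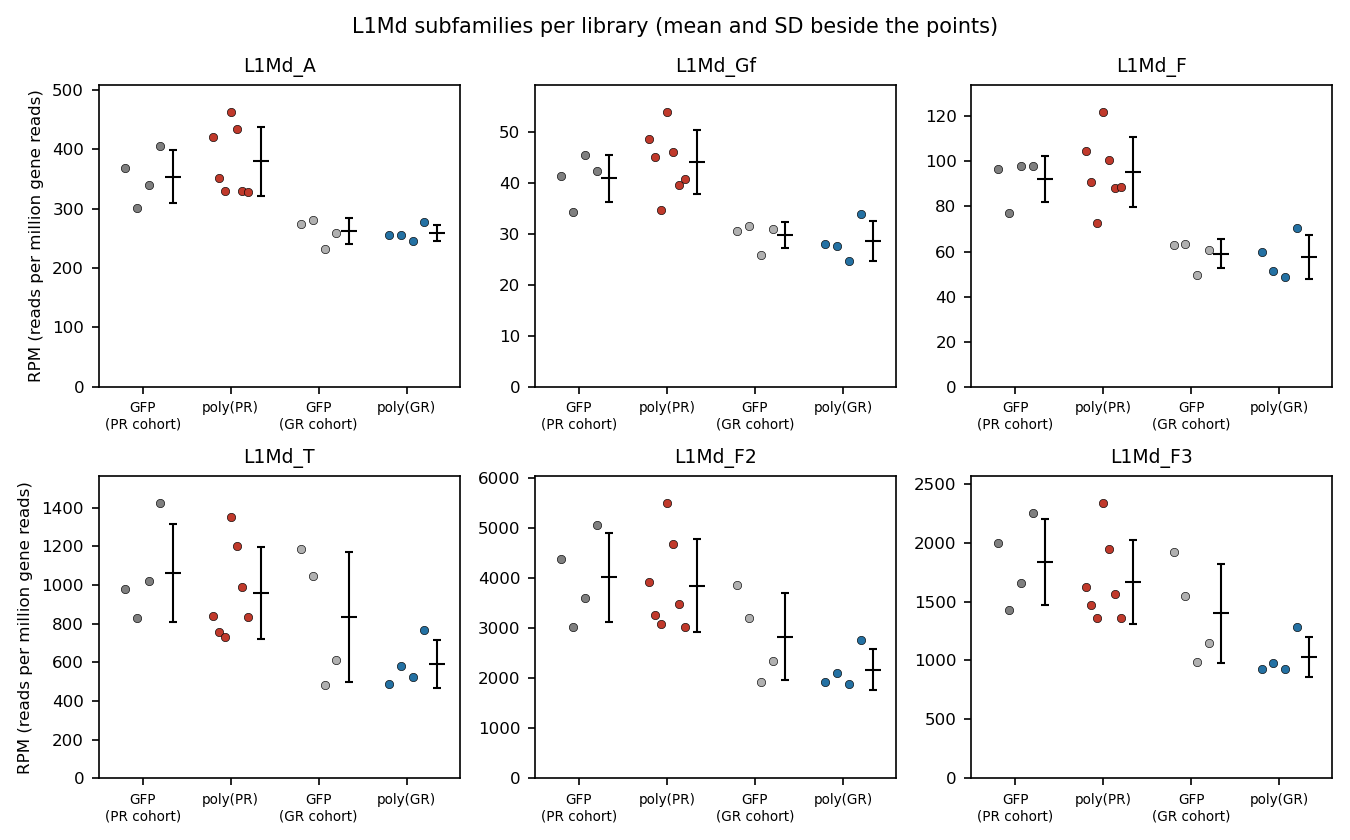
RPM (y axes, from 0) of the 6 L1Md subfamilies in each library, with mean and SD beside the points of each group. The upper 3, L1Md_A, L1Md_Gf and L1Md_F, differ little between the poly(GR) groups, while in the lower 3, L1Md_T, L1Md_F2 and L1Md_F3, 2 of the 4 controls of that cohort stand above the poly(GR) libraries.

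The low side of L1Md in the poly(GR) comparison came with 2 control libraries. Summed over L1Md_F2, L1Md_F3 and L1Md_T, the controls were at 6956, 5796, 3396 and 4102 and the poly(GR) libraries at 3336, 3657, 3340 and 4822. Control replicates 1 and 2 also gave 59.5% and 49.1% of their repeat reads to rRNA, while the other 6 libraries of the cohort gave 22.1% to 29.2%. The part of this in the L1Md levels was not tested. Without both controls, and without the sex term that the remaining libraries estimate poorly, the median L1Md log2 fold change was 0.05 in place of -0.22 and 5 of 6 lay above 0. With the sex term kept it was 0.33 and all 6 lay above 0. In that fit both controls left are male, so the contrast sets a single library, poly(GR) replicate 4, the only male of its group, against them. The female poly(GR) libraries inform only the sex term and the spread. Neither fit, added after seeing the data, called a LINE subfamily. Without the sex term 1 of 141 LINE subfamilies had an unadjusted p under 0.05, against 3 of all 973 (0.308%), and with it 56 of 141, against 183 of 973 (18.8%). The median over all subfamilies was 0.0032 without the sex term and 0.23 with it, beside 0.02 and 0.28 for LINEs.

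Without poly(GR) replicate 4 the comparison went further down, with 5 of 138 LINE subfamilies called lower, against 17 of all 957 (1.78%). With sex in that fit, the treatment effect sets the 3 female poly(GR) libraries against female control replicates 1 and 2 alone. The shift was not limited to LINEs, since the median was -0.16 over all subfamilies and -0.21 over LINEs. L1Md_T then had a log2 fold change of -1.07 (edgeR adjusted p = 1.2e-09), L1Md_F3 -0.87, L1Md_F2 -0.84, Lx2 -0.65 and the old L1MEf, named here because it was called, -0.45. Control replicates 1 and 2 are the libraries rich in rRNA, while the male controls, replicates 3 and 4, informed only the sex term. The gene tables of the cohort also come in 2 layouts. Among the 3 controls and 2 poly(GR) libraries with 2-column tables, 127 of 141 LINE subfamilies lay above 0, with a median of 0.12 beside 0.11 for all subfamilies. No LINE subfamily was called there, against 1 of all 975, which was lower. Among the 1 control, replicate 2, and 2 poly(GR) libraries with 4-column tables, 5 of 139 lay above 0, with a median of -0.27 and 17 called, all lower. Over all subfamilies 34 of 968 were called there, also all lower (3.51%), and the median was -0.21. That fit assumes that the lone control varies like the poly(GR) libraries. All libraries of the poly(PR) cohort have 4-column tables.

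**Figure D4:**
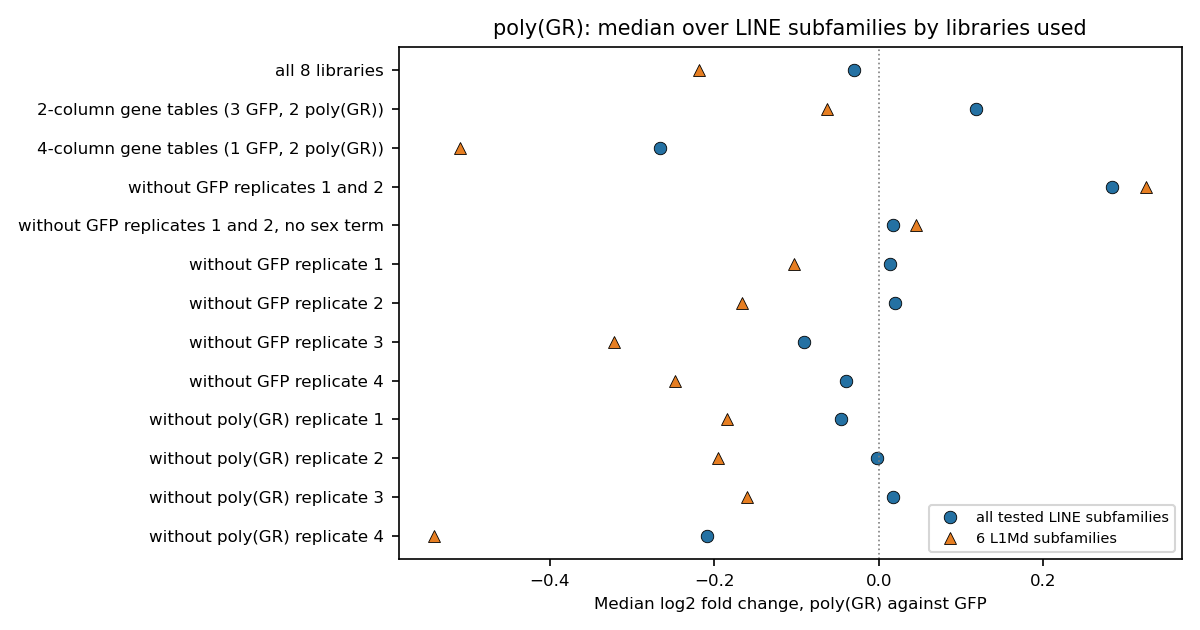
Median log2 fold change with poly(GR) (x axis) over all tested LINE subfamilies (circles) and over the 6 L1Md subfamilies (triangles), for the whole cohort and with libraries left out (y axis). The LINE median lies between -0.27 and 0.28 and the L1Md median between -0.54 and 0.33, so both cross 0 with the choice of libraries.

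The L1Md levels of the poly(PR) cohort also varied, 1.75 times from the lowest to the highest library, with overlapping groups. Summed over the 6 subfamilies, the controls were at 7859, 5705, 6759 and 9281 and the poly(PR) libraries at 6959, 5973, 5621, 9810, 8407, 6492 and 5672. The highest and the lowest library were both poly(PR). Control replicates 1 and 4 and poly(PR) replicates 1, 4 and 5, which gave the 5 highest sums, had 4.76% to 6.34% of gene reads on mitochondrially encoded genes, against 3.72% to 4.15% in the other 6 libraries. The part of this share in the levels was not tested.

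**Figure D5:**
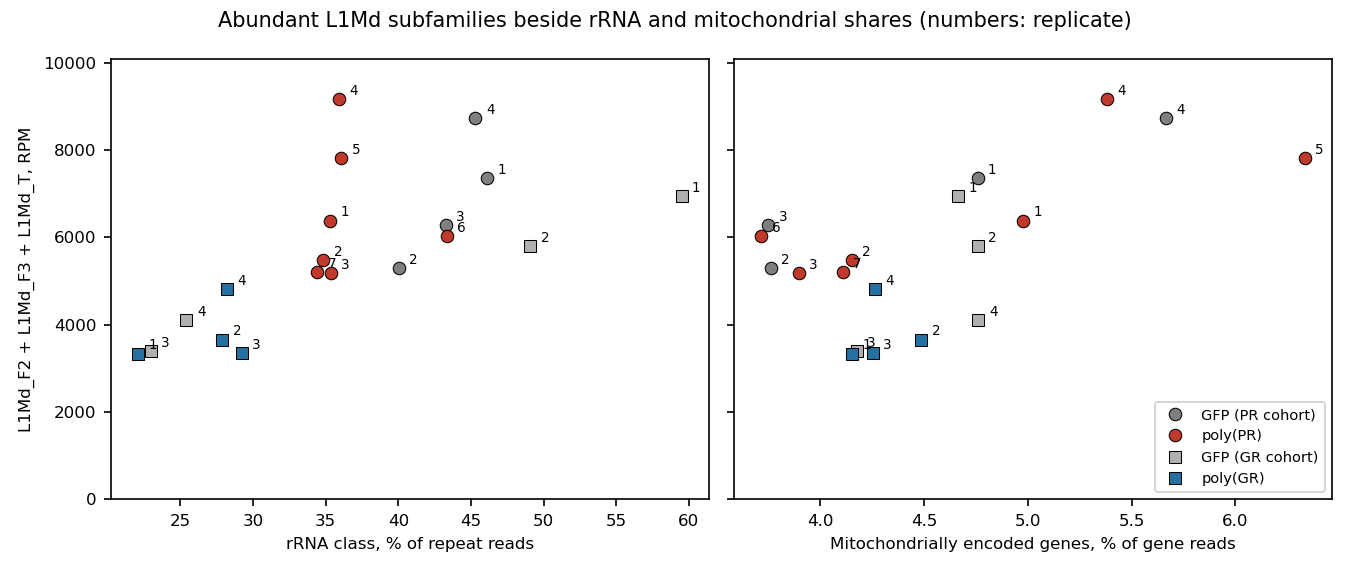
Summed L1Md_F2, L1Md_F3 and L1Md_T level in RPM (y axis, from 0) against the share of repeat reads on rRNA (left) and the share of gene reads on mitochondrially encoded genes (right), one point per library, numbered by replicate. In the poly(GR) cohort (squares) the 2 controls at 6956 and 5796 are those with 59.5% and 49.1% rRNA; in the poly(PR) cohort (circles) the 5 libraries with 4.76% to 6.34% mitochondrial reads lie above the rest.

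No Lx or other rodent L1 element was called in either cohort. Summed Lx stood at 12111 ± 1756 RPM (SD, n = 7) with poly(PR) and 11827 ± 1186 (SD, n = 4) in the controls, and 15 of 18 Lx subfamilies had log2 fold changes above 0, from -0.01 to 0.20. With poly(GR) and its controls, Lx was at 7781 ± 1024 (SD, n = 4) and 8127 ± 744 (SD, n = 4), with 8 of 18 above 0. Lx3_Mus had the highest Lx value with poly(PR), a log2 fold change of 0.20 (SE 0.17), and 0.0086 (SE 0.13) with poly(GR). Lx2 stood out in the poly(GR) cohort, where its controls were at 1281, 1121, 723 and 823 and the poly(GR) libraries at 761, 827, 711 and 924. As for L1Md_F2, control replicates 1 and 2 were the high ones, and the log2 fold change was -0.32 (SE 0.14, edgeR adjusted p = 1.00). Lx8, which has the most reads of the Lx group, had fitted log2 values of -0.01 (SE 0.09) with poly(PR) and -0.02 (SE 0.10).

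The other rodent L1 subfamilies varied least among the 4 groups of L1 in the poly(GR) cohort. Their sum was 8619, 8760, 8095 and 8406 RPM in the controls and 8470, 8593, 8079 and 8561 with poly(GR), so the highest library was 1.08 times the lowest, against 2.00 times for L1Md. The controls with much rRNA, at 8619 and 8760, lay close to the highest poly(GR) libraries here. With poly(PR) 10 of 12 lay above 0, with a median of 0.10, and with poly(GR) 2 of 12, with a median of -0.05. L1_Mus3 had fitted log2 values of 0.03 (SE 0.07) and 0.0023 (SE 0.08), L1_Mus2 0.05 (SE 0.07) and 0.01 (SE 0.09), and L1_Mus1 0.14 (SE 0.11) and -0.05 (SE 0.09), for poly(PR) and poly(GR) in that order.

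The old L1 elements are the largest group by number and hold several of the extremes of both comparisons. Their sum was 10896 ± 1043 RPM (SD, n = 7) with poly(PR) and 10923 ± 471 (SD, n = 4) without, and 7443 ± 1072 (SD, n = 4) with poly(GR) and 7718 ± 443 (SD, n = 4) without. Of 80 tested members, 44 had log2 fold changes above 0 with poly(PR) and 21 with poly(GR). L1M had the smallest unadjusted p of all LINE subfamilies with poly(PR). Its controls were at 94.5, 104, 106 and 64.1 RPM, and poly(PR) ran from 48.5 through 79.2 to 94.3. The poly(PR) libraries lay below 3 of the 4 controls, though replicate 2 at 94.3 came close to the control at 94.5. The log2 fold change was -0.37 (SE 0.15, 95% interval -0.69 to -0.05, unadjusted p = 0.0259, edgeR adjusted p = 0.969). With poly(GR) L1M was on the other side, at 0.21 (SE 0.11, adjusted p = 1.00).

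L1M2b had a mean above that of its controls in both cohorts and passed the test in neither. The poly(GR) libraries were at 17.2, 16.9, 16.9 and 15.3 RPM and their controls at 12.3, 15.3, 14.3 and 13.3, with log2 fold change 0.24 (SE 0.11, edgeR adjusted p = 1.00). Its lowest poly(GR) library was just above its highest control, which made it the only LINE subfamily whose groups did not overlap in that cohort. Over all subfamilies tested there, 2 lay wholly higher (0.209%) and 7 wholly lower (0.733%). With poly(PR) L1M2b ran from 15.8 to 23.0 RPM against 13.6 to 18.98 in the controls, so the groups overlapped (log2 fold change 0.26, SE 0.13, edgeR adjusted p = 0.969). No LINE subfamily separated in the poly(PR) cohort, in which 0 of all subfamilies lay wholly higher (0%) and 1 wholly lower (0.103%).

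The other extremes with at least 100 reads per library were small in level. With poly(PR) L1ME3D and L1ME5 had log2 fold changes of 0.24 (SE 0.13 and 0.17), L1ME2z -0.19 (SE 0.10) and L1M3c -0.18 (SE 0.18). With poly(GR) L1M7 had 0.21 (SE 0.19) and L1M2a 0.14 (SE 0.17). None of these passed the test, and in each the groups overlapped.

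L2, CR1 and RTE, all long inactive in the mouse, varied little. Summed L2 was 5809 ± 447 RPM (SD, n = 7) with poly(PR) against 5750 ± 271 (SD, n = 4), and 4754 ± 302 against 4754 ± 91.9 (SD, n = 4 each) with poly(GR). L2b, the L2 member with the most reads, had fitted log2 values of 0.04 (SE 0.07) with poly(PR) and 0.03 (SE 0.08), and L2a had 0.05 (SE 0.08) and -0.0014 (SE 0.09). L3, the leading CR1 subfamily, was at 832, 897, 950 and 803 in the poly(PR) controls and ran from 758 through 811 to 858 with poly(PR), with overlapping groups (log2 fold change -0.11, SE 0.07, edgeR adjusted p = 0.969). With poly(GR) L3 had -0.04 (SE 0.08). L4, which leads RTE, had -0.02 (SE 0.06) and -0.0027 (SE 0.09). X7C_LINE, a CR1 subfamily of few reads, was at 5.80, 5.27, 6.14 and 4.83 in the poly(PR) controls and 3.74 to 5.02, with a median of 4.57, with poly(PR). Only the highest poly(PR) libraries reached the lowest control, and the log2 fold change of -0.30 (SE 0.13) had an unadjusted p of 0.0366 and an edgeR adjusted p of 0.969.

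Whether the 2 proteins differed in their LINE values was tested as a contrast of their effects over all 19 libraries. The constructs differ in the dipeptide, in its number of units and in harvest, so the contrast joins all of these. None of 141 LINE subfamilies was called, nor any of 982 subfamilies (0%). An unadjusted p under 0.05 was found for 1 LINE subfamily in edgeR's quasi-likelihood test and in DESeq2, against 9 of all in edgeR (0.916%). It was L1M, whose poly(PR) effect was lower by 0.56 on the log2 scale (difference -0.56, SE 0.22, 95% interval -1.02 to -0.11, adjusted p = 1.00). All 6 L1Md differences were above 0, from 0.09 for L1Md_F to 0.41 for L1Md_T (SE 0.28). The 95% intervals of all 6 included 0, and that of L1Md_T ran from -0.17 to 1.00. The control libraries rich in rRNA enter this contrast too.

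Genes known to restrain or sense L1 were examined as a list of 37, of which 36 were tested. Trex1 was listed at 0 in every library. In the poly(PR) cohort 0 were called, against 11 of 19156 genes (0.0574%), and 4 had an unadjusted p under 0.05 in edgeR's quasi-likelihood test, against 2863 of all genes (14.9%). The list split 20 above and 16 below 0, with a median of 0.04 beside 0.0062 for all genes. In the poly(GR) cohort 1 was called, against 32 of 18511 genes (0.173%), and 3 had an unadjusted p under 0.05, against 2124 (11.5%). The split was again 20 to 16, with a median of 0.0073 beside 0.0032 for all genes.

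Zc3hav1, the zinc-finger antiviral protein, which binds CpG-rich viral RNA and limits L1, was the gene called. It was at 5.95, 5.61, 5.48 and 6.22 CPM (gene counts on the same scale) in the controls and 13.04, 9.24, 10.4 and 11.9 CPM with poly(GR). All poly(GR) libraries lay above all controls, and the gene rose 1.95-fold (edgeR adjusted p = 0.0059). Without control replicate 1 the fold was 2.00 and the gene missed the threshold (edgeR adjusted p = 0.0774). With poly(PR) it was at 7.04, 7.27, 7.03 and 6.77 CPM in the controls and ran from 7.39 through 8.48 to 9.75 CPM, also without overlap, at a fold of 1.22 that did not pass the test (adjusted p = 0.227).

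The core silencing genes did not pass the test in either cohort. Some of the genes below still had groups without overlap. Trim28, Morc2a and Samhd1 lay wholly above their controls with poly(PR), and Mphosph8 lay wholly below with poly(GR). In the other comparisons of these genes the groups overlapped. Of the rest of the list, Rb1 and Matr3 lay wholly below their controls with poly(GR). How many of all genes lay without overlap was not counted, so nothing is drawn from these separations or from those of Zc3hav1. Trim28, the KAP1 corepressor, differed by 0.11 on the log2 scale (SE 0.06) with poly(PR) and by 0.15 (SE 0.06) with poly(GR), and Setdb1, the H3K9 methyltransferase that it recruits, 0.07 (SE 0.08) and 0.06 (SE 0.06). Morc2a, a chromatin remodeller that works with HUSH, had 0.14 (SE 0.07) and 0.11 (SE 0.05), and Mphosph8, the HUSH subunit that reads H3K9 methylation, -0.26 (SE 0.18) and -0.15 (SE 0.06). Cbx5, which encodes HP1α, was at 204, 264, 272 and 187 CPM in the poly(PR) controls and ran from 160 through 210 to 256 CPM with poly(PR), with overlapping groups (log2 fold change -0.21, SE 0.15). With poly(GR) it had -0.08 (SE 0.06). Mov10, an RNA helicase that limits L1, had 0.25 (SE 0.27) and 0.12 (SE 0.11). Samhd1, which depletes deoxynucleotides, had 0.14 (SE 0.06) and 0.09 (SE 0.09).

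Marker genes placed the dissections side by side. Of the 6 markers of cortical and hippocampal neurons, none was absent from a whole group of libraries. Their summed level was 1683 to 1789 CPM in the poly(PR) controls and lower with poly(PR), at 1452 to 1586 CPM, while in the poly(GR) cohort it was 1631 to 1882 and 1650 to 1855 CPM. The summed level of 6 striatal markers was 727 to 894 CPM in the poly(PR) controls and 1005 to 1550 CPM with poly(PR), and 721 to 865 and 948 to 1092 CPM in the poly(GR) cohort. Astrocyte markers (3) summed to 839 to 886 CPM in the poly(PR) controls and 1035 to 1144 CPM with poly(PR), and microglial markers (4) to 160.7 to 172.1 and 172.5 to 199.7 CPM. With poly(GR) the ranges of both lists overlapped those of the controls. Choroid plexus markers (5) summed to 119 to 350 CPM in the poly(GR) controls and 6.71 to 117 CPM with poly(GR). In the poly(PR) cohort they varied widely within the treated group, at 4.604 to 540.3 CPM, against 49.92 to 169.7 CPM in its controls. Oligodendrocyte markers (3) summed to 3914 to 6568 CPM in the poly(PR) controls and 3774 to 6171 CPM with poly(PR), and to 3827 to 4259 and 3200 to 4029 CPM in the poly(GR) cohort. Endothelial markers (3) summed to 84.7 to 94.14 and 88.85 to 143.3 CPM, and to 74.12 to 103.3 and 86.16 to 102.8 CPM, in the same order. Ranges of both lists overlapped in each cohort. No marker of any list was at 0 in all libraries of a group. The part of these differences in the LINE values was not tested.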

How the data were processed

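The deposited tables hold raw counts of reads per gene (53801 Ensembl IDs) and per repeat subfamily, which the authors did not normalize. Per the submitters' processing notes, Trimmomatic 0.36 and STAR 2.5.2b were used with the builds mm10 and mm9, given without a role; which repeat annotation and counter were used, and how multimapping reads were treated, is not given in the sources used here. Per the labels' protocols libraries came from a stranded kit for total RNA, although the labelled molecule is polyA RNA. The gene tables, of which 14 have 4 columns and 5 have 2, were read without regard to strand. In the 14, the counts of the 2 strands were nearly equal, with 49.93% to 50.1% on the first. These counts therefore show no strand preference, although the labels name a stranded kit. Lines that name no gene stayed out; in the 14 tables reads on no gene were 6.57% to 13.4% and multimapping reads 4.79% to 6.74%. Gene names came from the tables supplied with the reference annotation (GENCODE M21, GRCm38), with 53620 IDs named.

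For all repeat subfamilies the counts were fitted in edgeR 4.0.16 (R 4.3.3, quasi-likelihood test, filterByExpr, sex as covariate, Benjamini-Hochberg adjustment over all subfamilies, 0.05). Library sizes were TMM-scaled gene counts, scaled within the cohort, or over all 19 libraries for the difference of effects. TMM used the genes that passed the same filter; this was settled after TMM over all genes had been run, which is kept as an alternative. For class and family totals, group means of log2 levels were compared by exact permutation (two-sided, without sex), with families of at least 10 reads on average. Genes were tested in the same way by edgeR over all genes. Groups of subfamilies were described without a test. DESeq2 1.42.0, other library sizes, filters, single libraries left out and the layouts of the gene tables were alternatives. The fits were tested on simulated counts.

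Groups come from the labels; replicate numbers follow accession order and pair nothing. The labels describe mice per group, and no 2 libraries of a group agreed within sampling noise (smallest chi-square per degree of freedom 7.05, over subfamilies whose pair held 20 reads or more). The members, lists and tests were chosen with earlier results of these data known. The text names every L1Md subfamily, the 8 with most reads, per cohort the 4 highest and 4 lowest log2 fold changes among members with at least 100 reads on average and the 3 smallest p, the leading L2, CR1 and RTE members, called silencing genes and 8 others fixed by name. L1MEf, the untested subfamilies, Trex1, Rb1 and Matr3 fall outside that rule and were named after their values were seen. No LINE sequence is printed.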

Additional observations from a re-analysis of the deposited data

Results flagged for a closer look

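Of 136 groups of libraries (named subfamilies and group sums in each of the 4 groups), 13 held 1 library far from the others. The measure was its gap to the nearest library over the whole range. Chance alone gives about 1 in 20 for independent groups. These groups share libraries, and sums repeat their members, so the 13 cannot be set against that rate. Low values fell mostly in control replicate 3 of the poly(GR) cohort. It had 26.0 RPM (reads scaled to gene reads, as above) of L1Md_Gf beside 30.7 to 31.6 in the other controls, 49.4 of L1Md_F beside 60.9 to 63.1, 61.4 of L1ME2z beside 72.0 to 72.3 and 293 of L4 beside 305 to 307. Its sums of old L1 (7058 beside 7862 to 8002) and RTE (297 beside 311 to 313) were low as well.

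High values fell mostly in poly(GR) replicate 4, the only male of its group. It had 1287 RPM of L1Md_F3 beside 924 to 978 in the other poly(GR) libraries, 6.42 of X7C_LINE beside 4.58 to 4.77, 858 of L3 beside 750 to 768 and a CR1 sum of 1293 beside 1171 to 1180. Its L1M2b was low, at 15.3 beside 16.9 to 17.2. Control replicate 2 of the poly(GR) cohort had 1514 of L2b beside 1451 to 1461, and control replicate 2 of the poly(PR) cohort 77.1 of L1Md_F beside 96.4 to 98.1. The results without each of these libraries are given with the alternatives.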

How the results depend on the processing

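No LINE subfamily was called with poly(PR), or for the difference of effects, under any alternative tried. With poly(GR), single libraries left out gave 0 to 5 calls, 5 without poly(GR) replicate 4 (18 of all 957 subfamilies), and the libraries with 4-column gene tables gave 17 (34 of all 968); every other alternative gave 0. The cause was not tested. The log2 difference of the LINE total with poly(PR), 0.00034, was 0.17 with all repeat reads as library size (adjusted p = 0.045, exact permutation test). It was 0.0714 with raw gene reads and 0.074 with gene reads without mitochondrial genes. It was -0.004922 with repeat reads without structural RNA and -0.0125 with DESeq2 size factors. With single libraries left out it was -0.0532 to 0.0462, turning sign without control replicate 2 or 3 or poly(PR) replicate 1, 4 or 5. With poly(GR), -0.08, it was 0.28 with all repeat reads, 0.0367 within the 2-column tables, 0.0143 without control replicates 1 and 2 (added after seeing the data) and -0.14 to -0.04 with single libraries left out. TMM over all genes, also run after seeing the data, gave 0.02 with poly(PR) and -0.07 with poly(GR). Scaling by all repeat reads also moved the median over all subfamilies with poly(GR) from -0.02 to 0.42. Calls among the silencing genes were 0 in every alternative with poly(PR), and 0 without control replicate 1 and 1 otherwise when single libraries were left out with poly(GR). For the 25 named subfamilies, 1125 values under 22 alternatives with poly(PR) and 23 with poly(GR) held 146 changes of sign, none of a called value, and 8 calls, all with poly(GR) and 4 each in the 2 settings above. No paired analysis was possible because replicate numbers only name libraries. Counts below 100 reads limit 16 subfamilies.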
